A study of Mus musculus with 2 samples.

Results

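Tendon progenitors and tenocytes were sought in single-cell RNA libraries of mouse embryonic limb muscle as the cell barcodes that carried UMIs of tendon genes. A UMI (unique molecular identifier) marks 1 captured RNA molecule, and a barcode stands for 1 droplet, usually with 1 cell. Barcodes were kept if 500 or more genes were detected and mitochondrial UMIs made up less than 10%, and a kept barcode was chosen if at least 2 of the genes Scx, Tnmd, Mkx and Thbs4 had a UMI and the muscle gene Myog, the cartilage gene Matn1 and the endothelial gene Cdh5 had none. This chose 551 of 16377 kept barcodes (18721 deposited), called tendon-gene barcodes below. The ages were the embryonic days E12.5, with 207 chosen of 12271, and E15.5, with 344 chosen of 4106. The members were thus chosen by measured UMIs of these 7 genes. The study compared limb skeletal muscle tissue of wild-type C57Bl/6 embryos at these ages, with 1 droplet library (10x Chromium, 3-prime) per age. Fore- and hindlimbs were mixed in each library, and the labels give neither the number nor the sex of the embryos. Barcodes with Xist UMIs and barcodes with Y-linked UMIs were both present at each age. The tissue was dissociated mechanically and with trypsin, and the libraries held 34907675 UMIs in 12941 barcodes at E12.5 and 46966083 UMIs in 5780 barcodes at E15.5. Since no age has a second library, the ages cannot be tested against each other, and every interval below is a 95% interval for counting error alone.

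Tendons join muscle to bone and are built mostly of type I collagen fibrils. Scx (scleraxis) is a basic helix-loop-helix transcription factor that marks tendon progenitors early in limb development, and Mkx (Mohawk) is a homeobox factor needed for collagen fibril growth. Tnmd (tenomodulin) is a membrane glycoprotein of more mature tenocytes that depends on Scx, and Thbs4 is a matricellular thrombospondin of tendon and of the muscle-tendon junction. Progenitors that carry both Scx and the cartilage regulator Sox9 form the attachment of tendon to bone.

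Tendon-gene barcodes were 1.69% of kept barcodes at E12.5 (interval 1.47 to 1.93%) and 8.38% at E15.5 (7.55 to 9.27%), a difference of 6.69 percentage points (5.85 to 7.60). Depth differed between the libraries: the tendon-gene barcodes had a median of 2923 UMIs at the earlier age and 9934.5 at the later. After every kept barcode was thinned at random to 2000 UMIs and the choice repeated, 85 of 8212 E12.5 barcodes (1.04%) and 143 of 3834 E15.5 barcodes (3.73%) were chosen, a difference of 2.69 points (2.09 to 3.37). E15.5 thus had the larger share either way, with a smaller gap at equal depth among the barcodes deep enough to be thinned. The choice was close to its threshold for many barcodes. Of the 207 at E12.5, 111 had exactly 2 of the genes with 1 UMI of each, and just outside stood 1877 barcodes with 1 of the genes, 1375 of them with Scx. At E15.5, 58 of the 344 had exactly 2 of the genes with 1 UMI of each, and 845 barcodes just outside had 1 of the genes, 423 of them with Thbs4. Another 18 barcodes at E12.5 and 28 at E15.5 met the tendon-gene condition but held Myog, Matn1 or Cdh5, mostly Matn1 at E12.5 (14) and Myog at E15.5 (23).

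The rule also has a background. Among endothelial barcodes, which should lack tendon genes, 1 of 159 from E12.5 (0.629%) and 2 of 163 from E15.5 (1.23%) had UMIs of at least 2 of the 4 genes, at median depths of 4266 and 12707 UMIs. No immune barcode did, of 63 at E12.5 (which allows a share of up to 4.76%) and of 171 at E15.5 (up to 1.75%). Barcodes with Myog did so in 3 of 425 cases (0.706%) at E12.5 and in 23 of 365 (6.30%) at E15.5. The share of tendon-gene barcodes at E12.5 lay within the interval of the endothelial share (0.0159 to 3.45%). The share at E15.5 lay above the endothelial interval (0.149 to 4.36%) and within that of the Myog barcodes (4.04 to 9.31%).

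The tendon genes were also read as pairs over all kept barcodes, which describes the genes of the rule and is no independent check of the name. At E12.5, over kept barcodes without the excluded genes, 23.9% of 464 barcodes with Mkx also had Scx, against 14.9% of the 9719 without Mkx, and 35.7% of 199 barcodes with Thbs4 had Scx, against 14.9% of those without. Thbs4 was found in 7.11% of barcodes with Mkx, against 1.71% without. Of 92 barcodes with Tnmd, 29.3% had Scx, against 15.2% of those without, and 9.78% had Thbs4, against 1.88%. Tnmd with Mkx was the pair of the 6 that was not more frequent: 4.35% of barcodes with Tnmd had Mkx (interval 1.20 to 10.8%), against 4.56% of those without Tnmd. At E15.5 the pairs were frequent. Scx was found in 48.5% of 264 barcodes with Mkx, against 8.86% without, and in 42.6% of 427 barcodes with Tnmd, against 7.57% without. Barcodes of both ages are called by the rule, and at E12.5 they had UMIs of 2 or 3 of the tendon genes.

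Within the tendon-gene barcodes, the make-up of the set differed between the ages. From E12.5 to E15.5 the share with Scx went from 89.4% to 71.8%, and the share with Tnmd from 15.9% to 76.2%. Both are genes of the rule, so these shares are in part set by the choice. The barcodes just outside, with only 1 of the 4 genes, moved in the same directions. Scx was that gene in 73.3% of them at the earlier age and 19.6% at the later, and Tnmd in 3.14% and 19.5%. The shift was thus not limited to the chosen barcodes. Scx with Mkx was the commonest pair at E12.5 (111 barcodes, 53.6%), and Scx with Tnmd (182 barcodes, 52.9%) and Tnmd with Thbs4 (180 barcodes, 52.3%) were the commonest at E15.5. No barcode had all 4 genes at E12.5, and 61 (17.7%) did at E15.5. A barcode held at most 2 Tnmd UMIs at E12.5 and up to 97 at E15.5, and the summed UMIs of Tnmd were 37 and 3118. Choosing and reading the barcodes at 2000 UMIs left Tnmd at 15.3% and 85.3% and lowered Mkx at E15.5 to 27.3%, so the order of the genes at E12.5 stayed and Mkx was the least frequent gene at E15.5 either way.

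**Figure D1:**
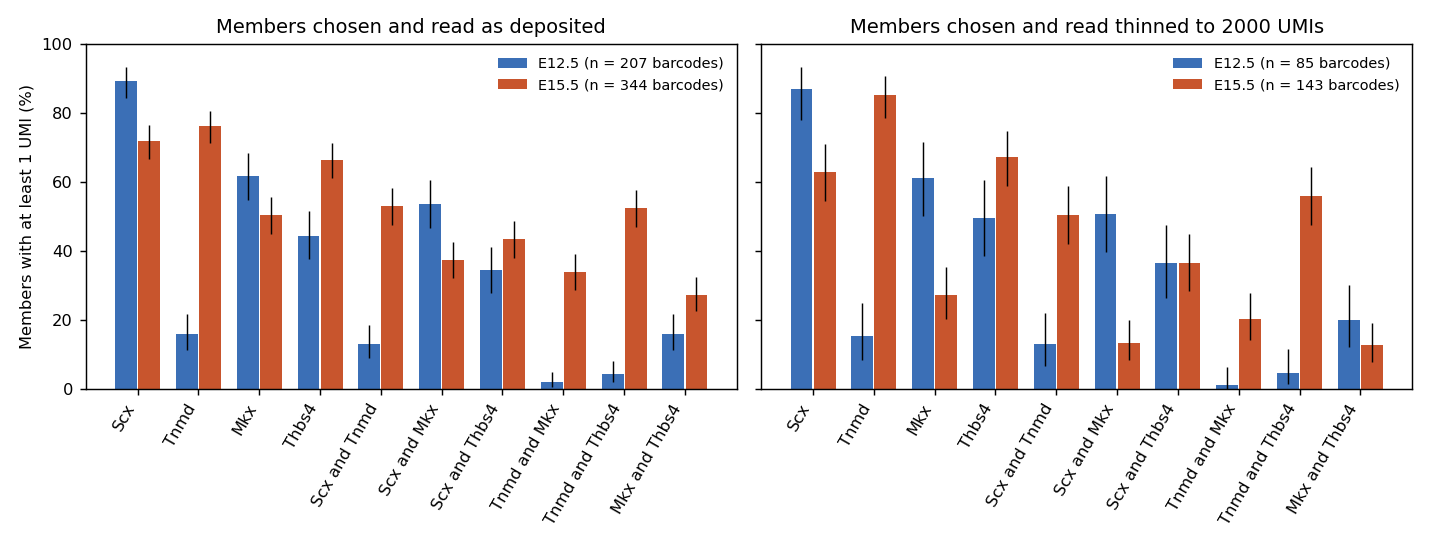
Share of tendon-gene barcodes (y axis, %) with at least 1 UMI of each tendon gene or pair (x axis), as deposited on the left and chosen and read after thinning to 2000 UMIs on the right, with exact binomial 95% intervals. Tnmd stands at 15.9% of 207 barcodes at E12.5 and at 76.2% of 344 at E15.5, while Scx is frequent at both ages.

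Markers of other cell classes were read in the same barcodes. Of 6 immune markers 5 were at 0 at E12.5 and 1 was at 0 at E15.5, and their summed level was 1.27 and 1.82 CPM (UMI counts scaled to a common library total), against 15.7 and 33.9 CPM in other mesenchymal barcodes. Ptprc, which marks all immune cells, was at 0 at both ages. The 6 endothelial markers summed to 10.1 and 34.9 CPM, against 7.19 and 39.7 CPM, with Cdh5 at 0 by the rule. The 5 Schwann cell markers summed to 13.9 and 22.8 CPM at E12.5 and E15.5, the latter against 36.2 CPM. The 9 muscle markers summed to 104 and 81.0 CPM, against 130 and 97.0 CPM in other mesenchymal barcodes, with Myog at 0 by the rule. The 7 markers of muscle connective tissue fibroblasts summed to 102 CPM at E12.5, with Dpt and Clec3b at 0, and to 403 CPM at E15.5, against 144 and 799 CPM in other mesenchymal barcodes. Between the ages 5 of them were higher (Dpt, Clec3b, Mfap5, Pi16 and Ly6a), against 17.1% of all genes compared. Their summed level changed by 1.97 on the log2 scale, against 2.48 in the other mesenchymal barcodes. The part of these markers in the matrix gene differences between the ages was not tested. Osr1 and Dpt were lower than in the pool at E15.5, Osr1 by -1.25 and Dpt by -1.53 on the log2 scale. Haemoglobin was uneven, since 1 barcode held 1507 of the 1630 haemoglobin UMIs at E12.5 and 3 barcodes held 15356 of the 15861 at E15.5. Barcodes with 5% or more haemoglobin UMIs were also found in the other pools, 29 and 5 of them in other mesenchymal barcodes. Counts of genes that differed changed by under 1.5 times when such barcodes were left out of every pool, these 4 among them. Doublet scores were high in 38 of the 207 barcodes at E12.5 (18.4%) and in 20 of the 344 at E15.5 (5.81%), against 10.4% and 3.95% of other mesenchymal barcodes, and those barcodes were kept. Leaving out the high-scoring barcodes of every pool moved no count of genes below by over 1.5 times. The libraries shared 17 barcode sequences, of which 0 and 2 were among the tendon-gene barcodes.

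Gene levels were compared on UMIs summed over the tendon-gene barcodes of a library, 666719 at E12.5 and 3860256 at E15.5, scaled to CPM with a median-of-ratios factor. The comparison pool was the other mesenchymal barcodes: 8181 at E12.5 and 2278 at E15.5 with a UMI of Prrx1 or Pdgfra, both made by limb mesenchyme, none of the excluded genes, and outside the chosen set. The pool was not free of tendon genes, since barcodes with 1 of the 4 could enter it. These 4 genes summed to 77.2 CPM at E12.5 and 81.4 CPM at E15.5 in the pool, against 760 and 1667 CPM in tendon-gene barcodes. A gene was counted as higher or lower where the ratio was at least 2-fold and its 95% interval left out no change, among genes with at least 50 UMIs in both pools together. Between the ages, 1441 of 8418 genes (17.1%) were higher at E15.5 in tendon-gene barcodes and 469 (5.57%) were lower. This split depends on the scaling. Plain CPM gave 631 higher and 1497 lower, and moved the median gene from 0.17 to -0.30 on the log2 scale, so that values below are to be read against a median gene at 0.17. All log2 values below are ratios of E15.5 over E12.5 unless another comparison is named. Counts of list genes between the ages are likewise to be read against the 17.1% higher and 5.57% lower over all genes.

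Fibril collagens and the proteins that bind them rose with age. Of 12 collagen genes 11 had enough UMIs, 10 were higher at E15.5 and none was lower, with a median log2 ratio of 2.10. Col1a1, the main chain of tendon fibrils, went from 788 to 5399.6 CPM (log2 ratio 2.78, interval 2.66 to 2.89). It had a UMI in 340 of 344 barcodes at E15.5, with a median of 41.5 UMIs per barcode, and in 173 of 207 at E12.5, with a median of 2. Read at 2000 UMIs, Col1a1 was found in 69.3% and 95.3% of tendon-gene barcodes, in 50.7% and 91.9% of other mesenchymal barcodes and in 8.28% and 29.9% of endothelial barcodes. Endothelial median depths were 4266 and 12693 UMIs. Col14a1, a fibril-associated collagen, rose from 27.8 to 392 CPM (3.82). Col12a1, another fibril-associated collagen, was the gene that did not reach 2-fold, at 449 and 539 CPM (0.26, interval 0.10 to 0.43). Col22a1, a collagen known from the muscle-tendon junction, had 0 UMIs at E12.5 and 44 in 31 barcodes at E15.5, where it stood at 13.4 CPM against 1.70 CPM in other mesenchymal barcodes. The rise was also seen outside the tendon-gene barcodes: the summed collagen level changed by 1.98 in tendon-gene barcodes and by 2.08 in other mesenchymal barcodes. Col11a1, a minor chain that nucleates fibrils, differed from that pattern. It stood at 512 and 1166 CPM in tendon-gene barcodes (1.19) and at 544 and 358 CPM in other mesenchymal barcodes (-0.60).

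Small leucine-rich proteoglycans, which coat collagen fibrils and control their width, were also higher at E15.5. Each of the 7 genes of 10 with enough UMIs was higher (Fmod, Kera, Lum, Dcn, Bgn, Aspn and Ogn), and the median log2 ratio was 2.27. The summed level rose more outside the tendon-gene barcodes, by 3.07 in other mesenchymal barcodes against 2.36. Fmod (fibromodulin) had 25 UMIs in 22 barcodes at E12.5 and 502 UMIs in 178 barcodes at E15.5. That is 31.6 and 152 CPM, against 7.88 and 20.4 CPM in other mesenchymal barcodes. Fmod was thus higher than in the comparison pool at both ages, with a log2 interval of 1.34 to 2.61 at E12.5 and of 2.71 to 3.09 at E15.5. Read at 2000 UMIs, Fmod was found in 7.36% of E12.5 and 19.2% of E15.5 tendon-gene barcodes (10.6% and 51.7% unthinned). Endothelial barcodes had it in 1.38% of 145 cases at E12.5, and in none of the 157 E15.5 barcodes (a count of 0 leaves room for 1.91%), at median depths of 4266 and 12693 UMIs. Kera (keratocan) stood at 62.0 and 194 CPM in tendon-gene barcodes and at 41.2 and 63.6 CPM in the comparison pool, over which it was higher at E15.5 (1.61, interval 1.47 to 1.75). Dcn (decorin) went the other way. It was higher than in other mesenchymal barcodes at E12.5 (178 against 57.8 CPM) and stood at 905 against 1471 CPM at E15.5. Lum (lumican) was lower than in the comparison pool at E15.5, at 314 against 629 CPM.

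For Tnmd, one of the genes of the rule, and for Fmod and Kera, which stood above the comparison pool at E15.5, the 250 bases before the gene's start are shown, because Scx binds E-boxes, written CANNTG. The sequences are RefSeq's for build GRCm38.p6, 5′ to 3′ on the gene's strand, with each E-box on either strand in capitals. The windows are chrX:133850758-133851007 (plus strand) for Tnmd, chr1:134037004-134037253 (plus strand) for Fmod and chr10:97606955-97607204 (plus strand) for Kera.
Tnmd: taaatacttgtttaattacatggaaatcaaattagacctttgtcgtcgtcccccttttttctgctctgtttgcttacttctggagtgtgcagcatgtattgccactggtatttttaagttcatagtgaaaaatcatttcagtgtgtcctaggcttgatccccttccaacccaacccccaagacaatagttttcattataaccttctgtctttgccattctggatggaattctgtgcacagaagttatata
Fmod: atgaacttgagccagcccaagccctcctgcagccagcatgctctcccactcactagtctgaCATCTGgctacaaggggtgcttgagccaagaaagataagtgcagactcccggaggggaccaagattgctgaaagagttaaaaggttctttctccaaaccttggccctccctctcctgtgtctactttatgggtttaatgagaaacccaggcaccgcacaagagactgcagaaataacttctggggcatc
Kera: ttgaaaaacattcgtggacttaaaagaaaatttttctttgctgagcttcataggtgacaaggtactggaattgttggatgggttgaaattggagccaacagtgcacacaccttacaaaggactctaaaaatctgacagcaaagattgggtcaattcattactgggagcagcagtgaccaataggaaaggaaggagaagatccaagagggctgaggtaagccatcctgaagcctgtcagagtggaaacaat
The Fmod window held 1 E-box, CATCTG, at which the other strand reads CAGATG. The windows of Tnmd and Kera held none, and that of Thbs4, another gene of the rule, held 1, CAAATG. Of 27025 promoter windows of this length, 17848 (66.0%) held CANNTG and 3913 (14.5%) held CAGATG or CATCTG, the latter being among the former. A match is a matter of letters, and no binding was measured.

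**Figure D2:**
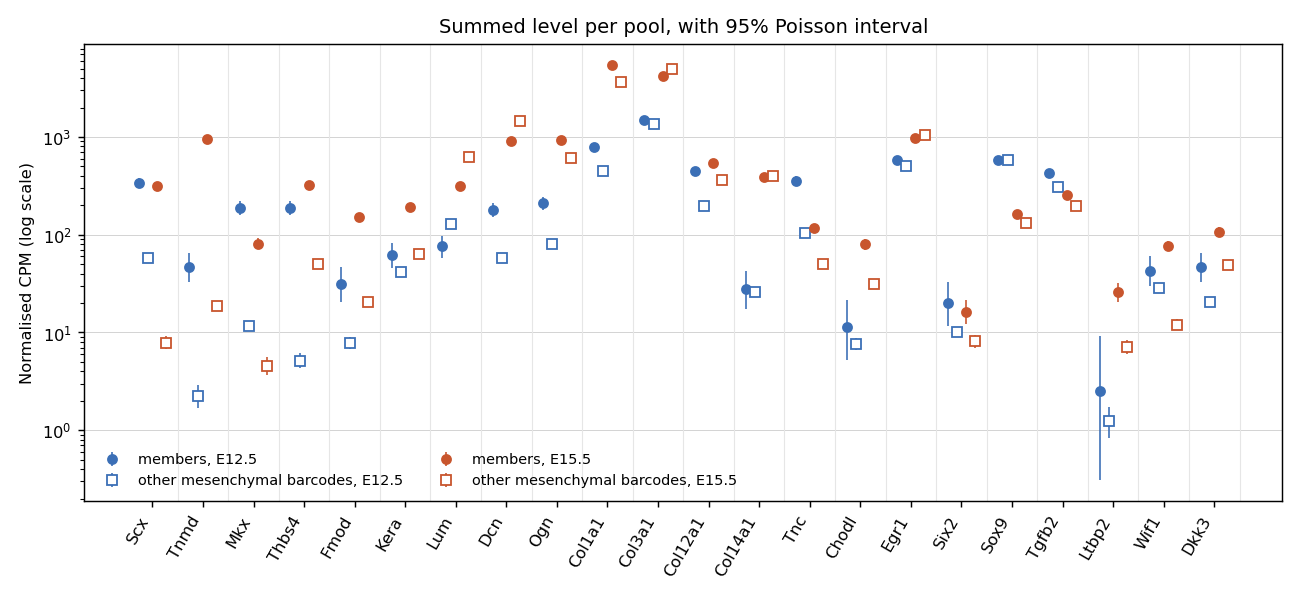
Summed level of tendon-related genes (y axis, normalised CPM on a log scale) in tendon-gene barcodes (filled circles) and other mesenchymal barcodes (open squares) at each age, with 95% Poisson intervals. Fmod stands above the comparison pool at both ages, Col1a1 is high in both pools at E15.5 (5399.6 CPM in tendon-gene barcodes), and Dcn is above the pool at E12.5 and below it at E15.5.

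Of 11 glycoproteins and other genes reported in tendon, 8 could be compared, 4 were higher at E15.5 (Thbs2, Postn, Htra3 and Chodl) and 1 was lower, with a median of 1.84. Their summed level changed by 1.65 in tendon-gene barcodes and by 2.11 in other mesenchymal barcodes. Postn (periostin), a matrix protein of load-bearing connective tissue, went from 102 to 1653 CPM (4.01, interval 3.70 to 4.35), and from 64.3 to 1401 CPM in other mesenchymal barcodes. The gene that fell was Tnc (tenascin-C), an adhesion-modulating protein of developing tendon, with 280 UMIs at the earlier age and 388 at the later. Its level was 354 and 118 CPM in tendon-gene barcodes (-1.59) and 105 and 50.1 CPM in other mesenchymal barcodes. Tnc therefore stayed above the comparison pool at both ages, by 1.75 and 1.23. Comp, a cartilage and tendon matrix protein, had 1 UMI at E12.5 and 7 at E15.5, too few to compare between the ages. It was lower at E15.5 than in all other kept barcodes. Angptl7, also of this list, was higher than in the comparison pool at E12.5 and lower than in it at E15.5, while Htra3 was higher at E15.5. Chodl (chondrolectin), a membrane lectin, had 263 UMIs at E15.5 and stood at 79.8 against 31.3 CPM in the comparison pool.

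Enzymes and chaperones of collagen processing were mostly higher at E15.5 as well. Of 18 genes 16 could be compared, 12 were higher and none lower, with a median of 1.52, and the summed level changed by 1.59 against 1.62 in other mesenchymal barcodes. Serpinh1, the collagen chaperone Hsp47, went from 564 to 1509 CPM, and Pcolce, which enhances removal of the procollagen C-propeptide, from 40.5 to 277 CPM. Plod2, which hydroxylates collagen lysines at cross-link sites, stood at 173 and 193 CPM (0.16, interval -0.11 to 0.43). None of the list passed 2-fold against other mesenchymal barcodes at either age. Of 11 elastic fibre genes compared, 9 were higher and none lower (median 1.62). Their summed level changed by 1.23, against 1.08 in other mesenchymal barcodes. Eln (elastin) rose from 25.3 to 246 CPM, and Fbn2 (fibrillin-2), the fibrillin of embryonic tissue, stood at 724 and 766 CPM (0.08, interval -0.05 to 0.22). Mfap4, a microfibril-associated protein, was the gene of this list that exceeded the comparison pool at E15.5, by 1.26.

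Among 8 further transcription factors of tendon, 7 could be compared between the ages, Egr2, Klf2 and Klf4 were higher at E15.5 and none was lower. The median was 0.73, while the summed level changed by 1.37, against 1.62 in other mesenchymal barcodes. Klf2, a factor induced by fluid flow and found in tendon cells, had 19 UMIs in E12.5 barcodes and 2092 in E15.5 barcodes, or 24 and 635 CPM (4.72, interval 4.08 to 5.46). Klf2 also rose in other mesenchymal barcodes, from 38 to 599 CPM (3.98). Egr1, an immediate-early factor that acts on collagen genes in tendon, stood at 586 and 975 CPM (0.73, interval 0.59 to 0.88). Six2, Eya1 and Eya2, which encode partner proteins of limb muscle and connective tissue development, differed from the comparison pool. Eya2 was at 29.1 against 5.54 CPM at E12.5 and 14.6 against 3.88 CPM at E15.5, and Six2 was at 20.2 against 10.1 CPM and 16.4 against 8.14 CPM. Eya1 was more than 2-fold above the pool at E15.5 (1.25) and had a log2 ratio of 0.20 at E12.5. Counts for Six2 and Eya1 were low, 16 and 8 UMIs at E12.5.

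Signalling genes were read by pathway, against the 17.1% of all genes that were higher and the 5.57% that were lower. In the TGF-beta pathway, which recruits tendon progenitors, 4 of 17 genes were higher at E15.5 (Ltbp1, Ltbp2, Ltbp3 and Ltbp4, which store the latent ligand in the matrix) and 2 were lower (the receptor Tgfbr1 and the co-repressor Skil). The summed level changed by -0.08 and the median gene by 0.15, opposite in sign. Of the ligands, Tgfb2 stood at 428 and 254 CPM (-0.75) and Tgfb3 at 51.9 and 72.8 CPM (0.49), while Tgfb1 had 0 and 15 UMIs. Ltbp2 was above the comparison pool at E15.5 (25.8 against 7.12 CPM), as was Tgfbi, a TGF-beta-induced matrix protein (139 against 64.0 CPM). In the FGF pathway 2 of 9 genes were higher (Fgf18 and the inhibitor Spry1) and Fgfr2 was lower, from 50.6 to 10.9 CPM. The shares higher in these pathways were thus close to the share over all genes. The summed FGF level changed by -0.03, which became 0.19 when barcodes were chosen after thinning, and the median gene by 0.18. Etv4, a transcription factor read as an FGF target, was at 19.0 and 21.6 CPM in tendon-gene barcodes and fell from 11.8 to 3.78 CPM in other mesenchymal barcodes, so that its excess at E15.5 was 2.51 (interval 2.03 to 2.99).

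In the BMP and GDF pathway none of 8 genes was higher and Bmp2, Gdf5 and Grem1 were lower at E15.5. Bmp2, a ligand, and Grem1, a secreted BMP antagonist, were both above the comparison pool at E12.5, Bmp2 at 105 against 48.7 CPM and Grem1 at 97.4 against 38.6 CPM. At E15.5 they stood at 37.9 against 40.0 CPM and 24.6 against 14.8 CPM, below 2-fold. Chrdl1, another BMP antagonist, was below the pool at E12.5 (8.86 against 27 CPM, from 7 UMIs). In the Wnt pathway 3 of 8 genes were higher (Sfrp2, Dkk2 and Dkk3, all secreted modulators) and none lower, with a median of 0.22. Dkk3 exceeded the comparison pool at both ages (1.20 and 1.12). Wif1, which binds and blocks Wnt ligands, stood at 43.0 and 77.1 CPM in tendon-gene barcodes and fell from 28.8 to 12.1 CPM in other mesenchymal barcodes. Its E12.5 excess over that pool was 0.58 (interval 0.04 to 1.08), and its E15.5 excess was 2.68 (2.42 to 2.93). Lef1, a nuclear effector of Wnt signals, had 14 and 9 UMIs and was below the pool at E12.5 (-1.21).

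Genes of the tendon-to-bone attachment and of cartilage fell. Of 11 genes 10 could be compared, 8 were lower at E15.5 (5.57% of all genes were) and none was higher, with a median of -1.48. The fall was also seen outside the tendon-gene barcodes. The summed level changed by -1.57 in tendon-gene barcodes and by -2.11 in other mesenchymal barcodes. Sox9 went from 585 to 162 CPM (-1.85, interval -2.04 to -1.67), and from 575 to 133 CPM in other mesenchymal barcodes. Read at 2000 UMIs, Sox9 was found in 54.6% of 163 tendon-gene barcodes at E12.5 (interval 46.6 to 62.4%) and 14.9% of 343 at E15.5 (11.3 to 19.1%). Unthinned shares were 66.2% and 35.5%. Other mesenchymal barcodes had thinned shares of 53.5% and 15.9%, and endothelial barcodes 17.2% and 2.55% at median depths of 4266 and 12693 UMIs. Sox9 was therefore as frequent in the tendon-gene barcodes as in the mesenchyme around them, and above the endothelial background at both ages. Sox5 and Sox6, its partners in cartilage, fell by 2.70 and 2.55 on the log2 scale, and Ptch1, the hedgehog receptor, fell by 1.47. The cartilage matrix genes Acan and Col2a1 and the factor Sox6 were above the comparison pool at E15.5, by 1.30, 1.09 and 1.23, and at E12.5 none of them passed 2-fold. Col11a2, a cartilage collagen, was below the pool at E12.5 (13.9 against 32.3 CPM) and above it at E15.5 (26.4 against 5.96 CPM). The 9 chondrocyte markers together stood at 491 against 259 CPM at E15.5, with Matn1 at 0 by the rule and Matn3 at 0, and their part in other differences of that age was not tested.

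Among genes known from early embryonic stages, 2 of 4 compared were lower at E15.5, against 5.57% of all genes. Hmga2, a chromatin protein of proliferating embryonic cells, went from 822 to 90.2 CPM, and Igf2bp1, an RNA-binding protein, from 124 to 54.3 CPM. None was higher (median -1.04), and both also fell in other mesenchymal barcodes (-3.55 and -1.43). Lin28a had 0 UMIs at both ages. Adhesion and junction genes were mixed. Of 12 genes Itga11 and Itgb5 were higher, close to the 17.1% of all genes, and Itga8 and Cdh2 lower, against 5.57% of all genes. The summed level changed by -0.09, which became 0.033 when barcodes were chosen after thinning. Itga11, a collagen-binding integrin subunit of connective tissue, stood at 30.4 against 8.58 CPM in the comparison pool at E15.5. Fn1 (fibronectin) was at 807 and 823 CPM and Ncam1, a homophilic adhesion molecule, at 251 and 273 CPM, and both were under 2-fold above the pool at each age.

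**Figure D3:**
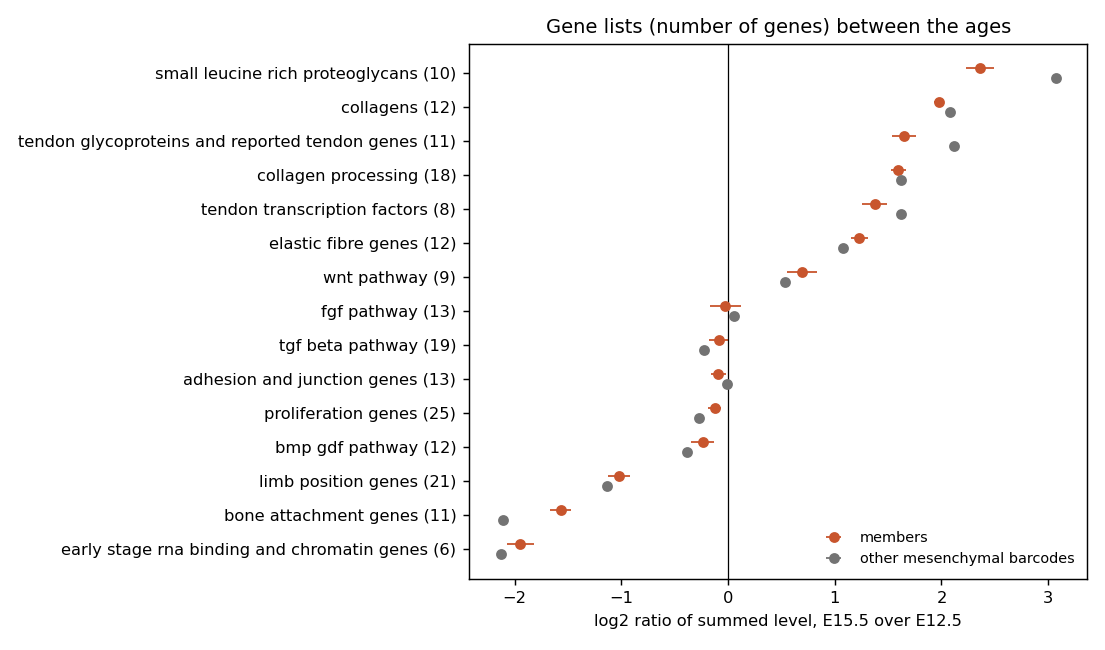
Change of the summed level of each gene list between the ages (x axis, log2 ratio of E15.5 over E12.5) in tendon-gene barcodes (orange, with 95% intervals) and other mesenchymal barcodes (grey), with the number of genes in brackets. Lists are ordered by the value in tendon-gene barcodes, from 2.36 for the small leucine-rich proteoglycans to -1.95 for the early-stage genes, and in every list but the FGF pathway both pools lie on the same side of 0. The adhesion list, at -0.09, became 0.033 and the FGF list, at -0.03, became 0.19 when barcodes were chosen after thinning.

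The genes with the largest rise between the ages were taken over the whole table, ranked on log2 of CPM plus 10. Ecrg4, a small secreted protein, had 0 UMIs at E12.5 and 1049 in 166 barcodes at E15.5, at least 83.9-fold higher against a floor of 3 counts in the pool. Its exact interval starts lower, at a log2 ratio of 6.09. S100a6, a calcium-binding protein of fibroblasts, rose by 5.44 on the log2 scale (9 and 1633 UMIs) and S100a10 by 3.81 (35 and 2042 UMIs). Abi3bp, a matrix protein of connective tissue, rose by 4.67 (11 and 1168 UMIs), Aspn (asporin) by 4.05 and Mfap5, a microfibril protein, by 6.48 (interval 3.99 to 11.78, from 1 UMI). Crip1, a LIM-domain protein, rose by 4.17. Sult5a1, a sulfotransferase, rose by 4.85 (6 and 720 UMIs), with up to 87 UMIs in 1 barcode. All 10 genes with the largest rise, Klf2 and Postn among them, also rose in other mesenchymal barcodes, for example S100a6 by 5.31 and Abi3bp from 9.85 to 181 CPM. The 10 largest falls included several regulators of transcription. Hmga2 fell by 3.19, Sox11, a factor of progenitors, by 2.43, and Tbx5 by 3.35. Gria2, a glutamate receptor subunit, fell by 5.03 (86 and 11 UMIs), Map2, a microtubule protein, by 3.03, and Dcc, a netrin receptor, by 3.68. Gria2 UMIs were unevenly spread, in 22 barcodes at E12.5 with up to 15 in 1 of them. Kif26b and Syn3 fell by 3.95 and 2.80, and Sox5 and Sox6, given above, were the others of the 10. All 10 genes with the largest fall were also lower at E15.5 in other mesenchymal barcodes, for example Hmga2 (-3.55), Tbx5 (-2.04) and Gria2 (-2.22).

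Against the other mesenchymal barcodes of the same library, 178 of 12617 genes (1.41%) were higher in tendon-gene barcodes at E12.5 and 122 (0.967%) were lower. At E15.5, 242 of 12584 (1.92%) were higher and 456 (3.62%) lower. The 4 tendon genes, the 3 excluded genes, Prrx1 and Pdgfra were not counted. At both ages 30 genes were higher, 16.9% of the E12.5 list and 12.4% of the E15.5 list, and 15 were lower at both (12.3% and 3.29%). These lists include genes under the UMI minimum at the other age, which could not be counted there. Of the higher genes, 154 of the E12.5 list and 188 of the E15.5 list were compared at both ages, and of the lower genes 115 and 283. Opposite calls were made for 11 genes higher at E12.5 and lower at E15.5, among them Gria2. In the reverse direction there were 2, Col11a2 and the potassium channel subunit Kcnmb4, named after its values were seen (-1.69 and 1.06). The barcodes were chosen for their tendon genes at somewhat higher depth (median 2923 against 2448 UMIs at E12.5 and 9934.5 against 9350 at E15.5), and these values describe the chosen set.

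Among the genes higher at both ages, Zfp185, a LIM-domain protein of the actin cytoskeleton, had the largest E15.5 excess of those named. It stood at 38 against 6.42 CPM at E12.5 (2.56, interval 1.95 to 3.13) and at 102 against 8.14 CPM at E15.5 (3.65, interval 3.38 to 3.93), with UMIs in 25 and 144 barcodes. Ssc5d, a secreted scavenger receptor protein, had the largest E12.5 excess of the named genes, at 53.1 against 8.31 CPM, and was at 82.6 against 22.2 CPM at E15.5. Both genes were spread over many barcodes, with at most 4 and 10 UMIs of Zfp185 and 2 and 6 of Ssc5d in 1 barcode. Signalling proteins were among the set. Inhba, the activin A subunit, was at 87.3 against 37.5 CPM and 105 against 38.3 CPM, and Ccn4, a matricellular Wnt target, at 39.2 against 15.4 CPM and 148 against 59.5 CPM. Ntng1 (netrin-G1) was 1.21 and 1.19 above the pool and Ddah1, which breaks down methylated arginine, 1.71 and 1.08. Col25a1, a transmembrane collagen, was 1.26 and 1.69 above it, and Fat3, an atypical cadherin, 1.35 and 1.20. Dock4, an exchange factor for small GTPases, and Prss35, a serine protease, had excesses of 1.31 and 2.13 and of 1.31 and 1.35. The genes lower at both ages included Irx3, a homeobox factor (-2.38 and -3.52, from 4 and 3 UMIs, the latter with an interval of -5.81 to -1.96), the Wnt inhibitor Apcdd1 (-1.75 and -1.81), Zeb2, a zinc finger repressor (-1.06 and -1.56), the lipid carrier Apoe (-1.93 and -1.21), Emilin2 (-1.75 and -1.20) and Tmem132c (-1.17 and -1.40).

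**Figure D4:**
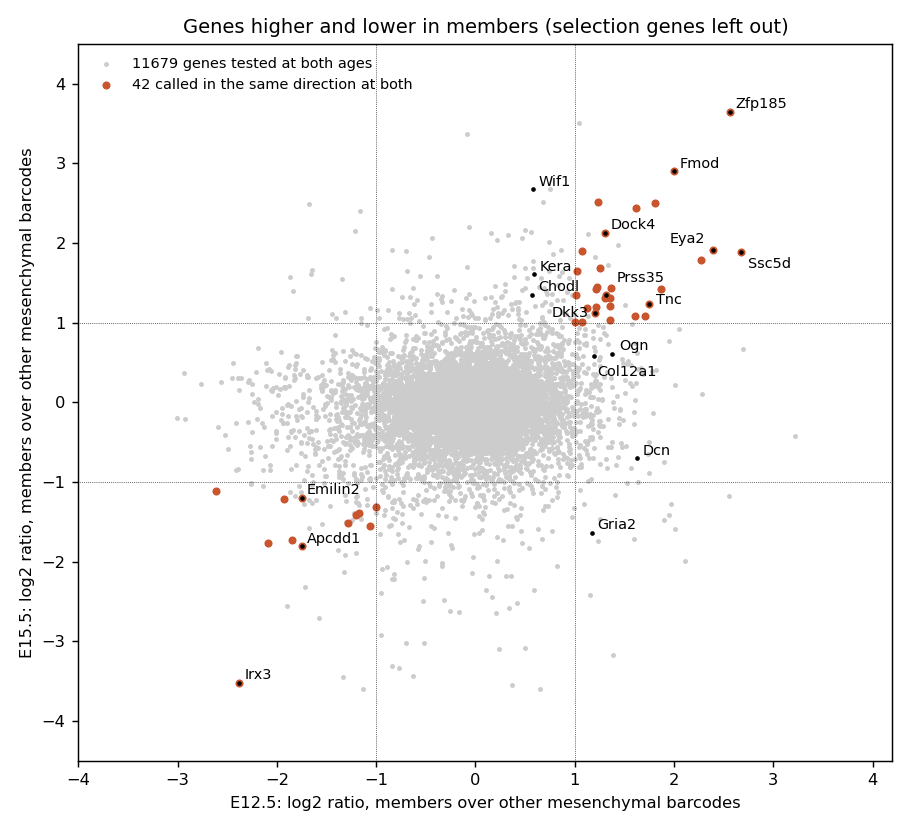
Log2 ratio of tendon-gene barcodes over other mesenchymal barcodes at E12.5 (x axis) and E15.5 (y axis) for 11679 genes with UMIs in every pool, without the genes used for the choice. Orange points are the 42 genes that passed 2-fold in the same direction at both ages, with Zfp185 (2.56 and 3.65) and Fmod at the upper right and Irx3 at the lower left, and black points are other labelled genes.

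Other genes were counted as higher at 1 age only, and the difference between the ages was not tested. At E12.5 these were led by Dcn (1.63), Ogn (osteoglycin, 1.38), Srgap1, a Slit-Robo GTPase activator (1.47), and Slc14a1, a urea transporter (1.74). Tapbpl also passed (3.22), with 11 of its 15 UMIs in 1 barcode. At E15.5 they were led by Cilp, a matrix protein of cartilage and tendon, with 186 UMIs in 80 barcodes and a level of 56.5 against 0.388 CPM (7.19, interval 6.18 to 8.42). At E12.5 Cilp was under the minimum of 50 UMIs, with 2 and 3 UMIs or 2.53 against 0.115 CPM (4.45, interval 0.87 to 7.58). Amtn, a gene known from enamel, had 86 UMIs in 27 barcodes with up to 11 in 1 of them, and stood at 26.1 against 0.0969 CPM. It too was under the minimum at E12.5, with 7 and 14 UMIs or 8.86 against 0.538 CPM (4.04, interval 2.49 to 5.44). Both intervals lay above 0, but on so few UMIs neither gene was counted as higher at E12.5. Spon2, a matrix protein, was at 103 against 19.6 CPM, Sult5a1 at 219 against 50.3 CPM and Wif1 at 77.1 against 12.1 CPM. Against all other kept barcodes, which include muscle, vessel and blood barcodes, 208 of 13636 genes (1.53%) were higher and 268 (1.97%) lower at E12.5, and 292 of 13862 (2.11%) higher and 1246 (8.99%) lower at E15.5. Eya2 was higher and Klf2 lower in that comparison at E12.5.

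The tendon-gene barcodes were not alike among themselves. At E12.5 the 92 barcodes with Thbs4 had more of several genes than the 115 without. Tnc had 201 against 79 UMIs (log2 ratio 1.82, interval 1.44 to 2.21), Kera 38 against 11 (2.26) and Zfp185 24 against 6 (2.47). Grem1 (1.44), Dock4 (1.76) and Ssc5d (1.47) were also higher with Thbs4, and the Wnt modulators Sfrp2 (-1.71) and Sfrp1 (-1.53) were lower. The 33 barcodes with Tnmd at that age had less Mkx, 6 against 143 UMIs (-2.47, interval -3.94 to -1.31), and less Bmp2 (-2.20), Sox9 (-1.03) and Col2a1 (-1.13). A barcode needs only 2 of the genes, so having 1 of them makes the others less needed, and the Mkx value in that comparison is in part set by the rule. All groups here with and without Thbs4 or Tnmd thus differ in the other tendon genes that the rule asked of them. What this does to the levels of further genes was not tested. At E15.5 Sox9 was lower in barcodes with Thbs4. The 228 barcodes with Thbs4 had 190 Sox9 UMIs and the 116 without had 343 (-2.05, interval -2.32 to -1.79), and the same barcodes with Thbs4 had more Cilp (184 against 2 UMIs, 5.32, interval 3.45 to 8.38), Spon2 (2.87) and the fibroblast genes Mfap5 (2.59), Clec3b (2.16) and Pi16 (46 against 1 UMIs, 4.32, interval 1.77 to 9.66). The 122 barcodes with Sox9 had more Col2a1 (480 against 199 UMIs, 2.02), Acan (2.33), Col9a1 (5.07) and the joint gene Gdf5 (3.45) than the 222 without, and less Cilp (-2.23). The 82 barcodes without Tnmd held 28 of the 38 UMIs of Prg4, the joint lubricant lubricin, 18 of the 30 of Gdf5 and 19 of the 29 of Erg, a factor of joint cartilage. They also held 17 of 25 Pax7 UMIs. Sox9 was concentrated at E15.5, where 34 barcodes held 69.4% of its UMIs, while the 34 barcodes highest in Tnmd held 49.0% of that gene's UMIs and those highest in Col1a1 29.7%.

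Limb genes differed between groups of tendon-gene barcodes. Tbx5 is made in forelimbs and Pitx1 in hindlimbs, and the libraries mix both. At E12.5 tendon-gene barcodes had 115 Tbx5 and 108 Pitx1 UMIs, so that Tbx5 was 51.6% of the sum (interval 44.8 to 58.3%), against 24.0% in other mesenchymal barcodes (23.1 to 25%). At E15.5 it was 9.38% (6.97 to 12.3%, 47 and 454 UMIs) against 12.3% (11.1 to 13.5%). With Tbx4, another hindlimb gene, in place of Pitx1, the gap to the pool was smaller at E12.5: Tbx5 was 71.4% of the sum (63.8 to 78.3%) against 59.7%, and 38.5% (29.9 to 47.8%) against 50.7% at E15.5. These and the later limb intervals take each UMI as 1 draw, although a barcode can give several. The 115 Tbx5 UMIs at E12.5 came from 67 barcodes, with up to 6 in 1, so the intervals may be too narrow. By barcode, Tbx5 alone was in 25.6% of tendon-gene and 11.6% of other mesenchymal barcodes at E12.5, and 7.27% and 9.35% at E15.5. Pitx1 or Tbx4 alone was in 30.0% and 37.9% at E12.5, and 52.9% and 48.5% at E15.5. The E12.5 balance moved with Thbs4: Tbx5 was 74.4% in barcodes with Thbs4 (64.2 to 83.1%) and 36.1% in those without (27.9 to 44.9%), and in other mesenchymal barcodes it was 41.1% with Thbs4 and 23.8% without. At E15.5 the shares were 14.4% with Thbs4 and 3.46% without. Sex-linked RNA moved with it too. Tbx5 was 80.8% in 37 male and 36.9% in 103 female tendon-gene barcodes at E12.5, and within female barcodes it was 67.6% with Thbs4 and 23.5% without. Male barcodes had 27 Tbx5 and 3 Pitx1 UMIs with Thbs4, and 15 and 7 without. Other mesenchymal barcodes had the same order of the sexes at E12.5, with 42.4% in male and 19.1% in female barcodes. The order was not kept at E15.5. There Tbx5 was 7.79% in male and 10.3% in female tendon-gene barcodes, and 6.12% and 14.6% in other mesenchymal barcodes. How many embryos and limbs of each kind were pooled is not given, so limb, embryo and sex cannot be told apart. Of the 21 limb position genes, 16 could be compared between the ages, 10 were lower at E15.5 and Tbx2 was higher, with a median of -1.23. Over all genes 5.57% were lower and 17.1% higher. The summed level of the limb position genes changed by -1.02, against -1.13 in other mesenchymal barcodes. Shox2, a factor of the upper limb skeleton and its muscles and tendons, went from 424 to 174 CPM, and Tbx2 from 3 to 103 UMIs, at 31.3 against 10.7 CPM in the comparison pool at E15.5.

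**Figure D5:**
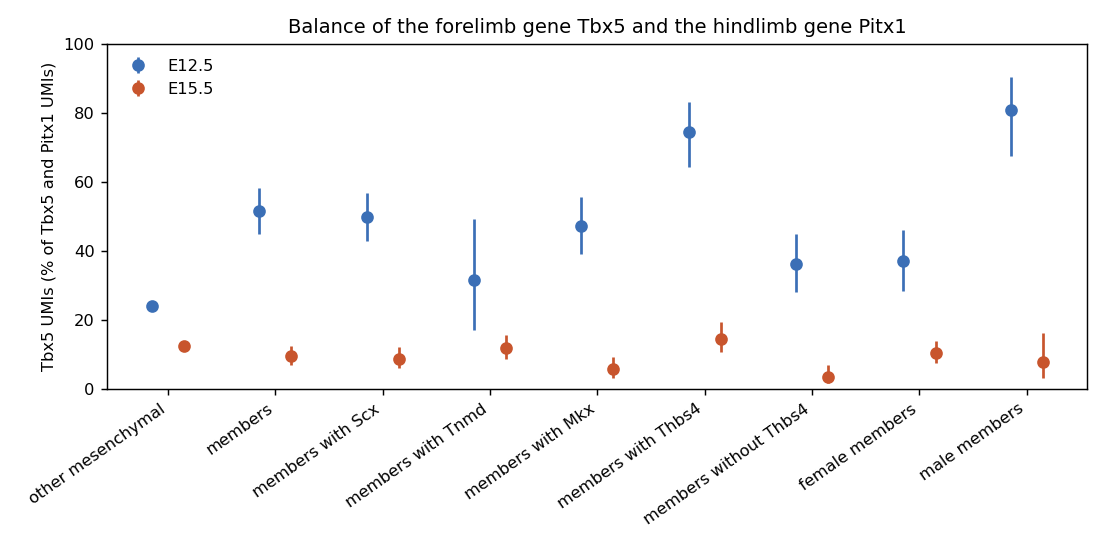
Tbx5 UMIs as a share of Tbx5 and Pitx1 UMIs (y axis, %) in other mesenchymal barcodes and in groups of tendon-gene barcodes (x axis), at E12.5 (blue) and E15.5 (orange), with exact binomial 95% intervals. At E12.5 the share is 24.0% in other mesenchymal barcodes and runs from 31.4% (with Tnmd) to 80.8% (male) in the groups of tendon-gene barcodes drawn, and barcodes with Thbs4 (74.4%) lie above those without (36.1%).

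Proliferation genes were read at both ages. Of 25 genes Aurkb and Tyms were higher at E15.5 and Mki67, Bub1 and Cenpe lower, against 17.1% and 5.57% of all genes. The summed level was 3617 and 3317 CPM (-0.13, interval -0.18 to -0.07) against -0.28 in other mesenchymal barcodes. Plain CPM gave -0.60 for the list and male barcodes alone gave -0.48. Read at 2000 UMIs, a UMI of Top2a or Mki67, genes of dividing cells, was found in 58.9% of tendon-gene barcodes at E12.5 (interval 50.9 to 66.5%) and 33.5% at E15.5 (28.5 to 38.8%). Unthinned shares were 58.5% and 54.4%. Other mesenchymal barcodes had 57.4% and 26.5% after thinning. Endothelial barcodes had 54.5% and 33.1%, so the share was lower at E15.5 in all 3 pools.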

How the data were processed

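The deposited files hold UMI counts per gene and cell barcode, which the authors made with Cell Ranger 4.0.0 on build mm10, per the submitters' processing notes, which also name Seurat 4.3.0. No annotation of cells or embryos was used. Barcodes with at least 500 genes and under 10% mitochondrial UMIs were kept. Counts were summed per pool and scaled by median-of-ratios factors over the 5731 genes with at least 20 UMIs in each of 6 pools. Ratios have exact conditional 95% intervals, without a model of biological spread. Genes needed 50 UMIs in the pools compared. All list genes could be named, plus the genes with the largest and smallest log2 ratio of CPM plus 10 (10 and 10 between ages, 12 and 6 against other mesenchymal barcodes at both ages, 5 at each single age). Doublets were kept, and Scrublet scores in scanpy 1.11.5 served to remove 0.8% of barcodes per 1000 as an alternative. Scripts used Python 3.11.15, numpy 2.4.6 and scipy 1.17.1, and the ratio step was tested on simulated data. Identifiers matched GENCODE vM21 for 32158 of 32285 genes. Some genes of the lists are not reported here. The members and gene lists were chosen with earlier results of these data known. Alternatives covered barcode filters, the tendon-gene rule, scaling, weighting, the UMI minimum, thinning and sex-linked RNA. Leaving out barcodes with 5% or more haemoglobin UMIs was chosen after seeing the data.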

Additional observations from a re-analysis of the deposited data

Results flagged for a closer look

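Among the genes higher in tendon-gene barcodes than in other mesenchymal barcodes, 3 were flagged for going in opposite directions with age in the pools. The difference was not tested because each age is 1 library. These 3 were not the only such genes: Slc14a1 had log2 ratios of -2.29 and 0.10, and Col11a1 is given above. Wif1 had a log2 ratio of E15.5 over E12.5 of 0.84 in tendon-gene barcodes and -1.25 in other mesenchymal barcodes. Ddah1 had -0.42 in tendon-gene barcodes and 0.21 in the others, both under 2-fold, and plain CPM gave -0.89 and -0.19, so the opposite sign depends on the scaling. Plain CPM kept the opposite signs of Wif1 and Amtn. Amtn had 1.56 and -2.47, from 7 and 86 UMIs in tendon-gene barcodes and from 14 and 2 UMIs in the others, fewer than the minimum of 50.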

How the results depend on the processing

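No paired analysis was possible because each age is 1 library. Requiring at least 3 of the 4 tendon genes gave shares of 0.196% and 3.92%, a difference of 3.73 points, 641 genes higher at E15.5, 973 lower than other mesenchymal barcodes at E15.5, a proliferation log2 ratio of -0.59 and Tbx5 shares of 63.3% and 12.7%. It also reversed 3 ratios over other mesenchymal barcodes, Dcc at E12.5 (-1.55) and Klf2 (-0.19) and Sox5 (-0.40) at E15.5. Choosing after thinning to 2000 UMIs gave 1.04%, 3.73%, a difference of 2.69 points, 772 genes lower than other mesenchymal barcodes at E15.5 and a Tbx5 share of 13.4% at E15.5, and reversed Sox5 at E15.5 (-0.28) and the adhesion list (0.033). A minimum of 200 genes gave 6.81% at E15.5 and a difference of 5.19 points. Plain CPM gave 631 genes higher and 1497 lower between the ages and -0.60 for proliferation. Equal weight per barcode gave 185 genes lower than other mesenchymal barcodes at E12.5 and -0.24 for proliferation. With no UMI minimum, 1057 genes were lower between the ages and 443 higher than other mesenchymal barcodes at E15.5. With a minimum of 200 UMIs, 751 were higher and 131 lower between the ages, and against other mesenchymal barcodes 79 were higher at E12.5 and 102 higher and 175 lower at E15.5. Thinning to 1000 UMIs gave Sox9 shares of 40.8% and 10.2% and Top2a or Mki67 shares of 44.2% and 27.6%, and thinning to 3000 gave 66.0% and 21.9% for Sox9 and 74.0% for Top2a or Mki67 at E12.5. Male barcodes gave 548 genes higher and 145 lower, -0.48 for proliferation and a Tbx5 share of 80.8% at E12.5, and female barcodes a Tbx5 share of 36.9%. The cause of these shifts was not tested, beyond the fewer genes or barcodes that the UMI minimum, the sexes and the stricter rule leave. Of the values for single genes and lists, 1211 stayed within the main value's 95% interval, 220 moved outside it and 5 changed sign from a value whose interval left out 0. Of those that stayed or moved, 21, from 11 results whose interval held 0, also had the other sign, among them the FGF list (0.19 after thinning), Inhba (-0.21 with plain CPM) and Apcdd1 (-1.72 after thinning). Precision is limited by the 207 barcodes and 666719 UMIs at E12.5.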

Other observations

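Smooth muscle and vessel-wall markers stood at 82.2 and 111 CPM in tendon-gene barcodes and at 77.9 and 231 CPM in other mesenchymal barcodes (5 genes, summed). Markers of osteoblasts, 6 genes, summed to 68.3 CPM at E12.5 and 16.1 CPM at E15.5, against 97.7 and 14.5 CPM in other mesenchymal barcodes. Joint markers, 4 genes, stood at 84.8 and 64.0 CPM, against 82.1 and 46.4 CPM. Prg4, which encodes the joint lubricant lubricin, was higher than in other mesenchymal barcodes at E15.5 (11.5 against 2.81 CPM), with 38 UMIs in 14 barcodes.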
